A study of Danio rerio with 4 samples.

Results

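This account follows 2 genes, mt2 (ENSDARG00000041623) and lxn (ENSDARG00000043102), through 4 single-cell RNA libraries made from zebrafish heart ventricles. They were chosen, out of 24438 gene symbols, by the values analysed here: they were selected on their counts of UMIs (unique molecular identifiers, one per captured RNA molecule) in cardiomyocytes, which were higher in a mutant library than in its wildtype library and lower in a library of injured hearts than in one of uninjured hearts. The mutant fish were 6 months old and carried Tg(pdgfrb:EGFP; cxcl12b:Citrine; fli1a:DsRed) and pdgfrb-/- with the um148 allele, in the labels' spelling. Their wildtype counterparts were of the same age with those transgenes. Injured fish were 18 months old, carried Tg(pdgfrb:EGFP; cxcl12b:Citrine), and had lost the apex of the ventricle by amputation 7 days earlier, and the uninjured fish matched them in age and transgenes. Fish of all 4 groups were of strain AB, and all carried pdgfrb:EGFP and cxcl12b:Citrine. Each ventricle sample was digested with collagenase and elastase and sorted for EGFP under the control of pdgfrb, the gene of a platelet-derived growth factor receptor of mural cells and fibroblasts, and each group had 1 library. How many fish went into a library is not given in the sources used here.

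Metallothioneins are small cysteine-rich proteins that bind zinc and copper ions, and their genes are known to respond to metal load, glucocorticoids and oxidative stress. mt2 is one of the zebrafish genes of this family. Latexin, the product of lxn, is known in mammals as an inhibitor of zinc-dependent carboxypeptidases of the A family, enzymes that trim amino acids from the carboxyl end of proteins, and in mice as a gene that limits the number of blood stem cells. Its fold is related to that of the cystatins, inhibitors of cysteine proteases.

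After filtering, the libraries held 1119 mutant, 948 wildtype, 1389 injured and 2006 uninjured cells, with between 1986540 and 7938491 UMIs each. Clusters were named from marker genes, and a name is therefore a likeness and not the authors' own annotation. Cardiomyocyte-like cells made up 83.0% of mutant, 73.8% of wildtype, 47.8% of injured and 52.8% of uninjured cells, although the sort was for EGFP. In these cardiomyocyte-like cells pdgfrb itself had 0, 0, 0 and 2 UMIs in mutant, wildtype, injured and uninjured, and EGFP had between 6 and 22 UMIs a library. Over all kept cells pdgfrb had 7 UMIs in mutant and 115 in wildtype, and no mural-like cell was found in mutant, against 92 in wildtype. The 14 cardiomyocyte markers found all had UMIs in cardiomyocyte-like cells of every library. Between any pair of libraries, 0 to 4 cell barcodes were shared. With 1 library per group no difference below has a replicate check, and no test was made. Intervals are at 95% and cover counting error only.

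Both genes had their 2 high levels in mutant and uninjured cardiomyocyte-like cells and their 2 low levels in wildtype and injured ones. Levels are given as CPM, the UMIs of a gene per 1000000 UMIs summed over the cells. For mt2 there were 100 UMIs in mutant and 5 UMIs in wildtype cells, or 44.4 CPM (36.1 to 54.0) in mutant and 3.22 CPM (1.05 to 7.51) in wildtype. In injured cells mt2 had 7 UMIs, or 2.80 CPM (1.13 to 5.77), and in uninjured cells it had 123 UMIs, or 33.8 CPM (28.1 to 40.4). The mutant and uninjured intervals of mt2 overlap, as do those of wildtype and injured. These intervals take UMIs as independent, while 2 cells held 49.6% of the uninjured mt2 UMIs. By share of cells with mt2, given below, the mutant and uninjured intervals do not overlap. The 2 reference libraries thus differed from each other, at 3.22 CPM in wildtype and 33.8 CPM in uninjured. The pairs differ in age and in fli1a:DsRed, whose part in this was not tested. The log2 ratio of mutant over wildtype was 3.79 (2.52 to 5.44), 13.8-fold higher in mutant, and that of injured over uninjured was -3.59 (-4.94 to -2.51), 12.1-fold lower in injured. These ratios describe the contrast that chose the genes.

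lxn had the same pair of high libraries and the same pair of low ones. It had 316 UMIs in mutant and 28 UMIs in wildtype cardiomyocyte-like cells, or 140 CPM (125 to 157) in mutant and 18.0 CPM (12.0 to 26.1) in wildtype. In injured cells lxn had 88 UMIs, or 35.2 CPM (28.3 to 43.4), and in uninjured cells 504 UMIs, or 139 CPM (127 to 151). The intervals of mutant and uninjured overlap, while the injured interval lies above that of wildtype. As for mt2, the reference libraries differed, at 18.0 CPM in wildtype and 139 CPM in uninjured. The log2 ratio was 2.96 (2.40 to 3.57) for mutant over wildtype, 7.78-fold higher in mutant, and -1.98 (-2.32 to -1.65) for injured over uninjured, 3.93-fold lower in injured.

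**Figure D1:**
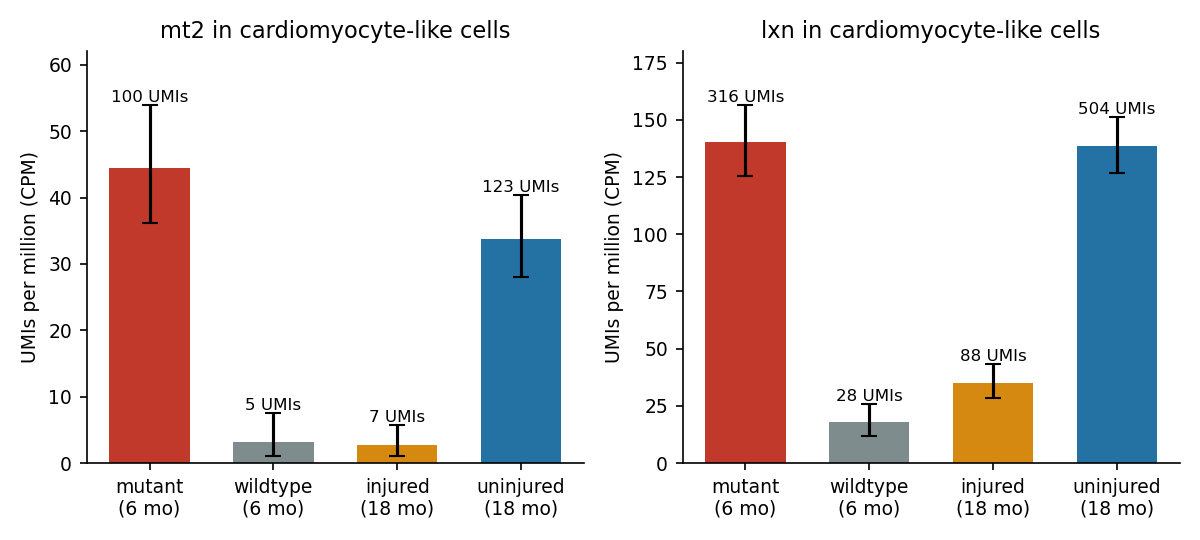
mt2 (left) and lxn (right) in cardiomyocyte-like cells of the 4 libraries. Bars are CPM from 0 upwards, error bars are exact Poisson intervals of the UMIs at 95%, and the number over each bar is the gene's UMIs. Mutant and uninjured stand above wildtype and injured for both genes.

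The mt2 molecules lay in few cells and the lxn molecules in many. An mt2 UMI was found in 44 of 929 mutant cardiomyocyte-like cells (4.74%) and in 3 of 700 wildtype cells (0.429%). It was found in 7 of 664 injured cells (1.05%) and in 22 of 1060 uninjured cells (2.08%). The intervals of the injured share (0.425 to 2.16%) and the uninjured share (1.31 to 3.13%) overlap. That of the mutant share (3.46 to 6.31%) lies above that of uninjured. The leading mutant cells had 12 and 11 mt2 UMIs, the leading wildtype cell had 3, each of the 7 injured cells had 1, and the leading uninjured cells had 33 and 28. In uninjured these 2 cells held 49.6% of the class's mt2 UMIs, and in mutant the first 2 held 23.0%. Left without the 2 leading cells of each library, the injured-over-uninjured log2 ratio was -3.09 and the mutant-over-wildtype ratio 5.73, the last resting on 1 remaining wildtype UMI.

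An lxn UMI was found in 235 mutant cells (25.3%) and 25 wildtype cells (3.57%), and in 62 injured cells (9.34%) and 228 uninjured cells (21.5%). The leading cell had 5 lxn UMIs in mutant, 3 in wildtype, 5 in injured and 18 in uninjured. Mutant and uninjured differed in how lxn was spread: 1 mutant cell had 5 or more lxn UMIs, against 30 uninjured cells, while 174 mutant and 151 uninjured cells had exactly 1. Median UMIs per cardiomyocyte-like cell were 2162 in mutant, 1926.5 in wildtype, 2987 in injured and 2702.5 in uninjured. Thinned to 500 UMIs a cell, 5.71% of mutant, 1.43% of wildtype, 1.96% of injured and 5.57% of uninjured cells had an lxn UMI. The same thinning left mt2 UMIs in 1.40% of mutant and 0 of 700 wildtype cells, which allows up to 0.526%. It left them in 0.151% (0.00381 to 0.836) of injured and 0.755% (0.326 to 1.48) of uninjured cells, intervals which overlap.

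**Figure D2:**
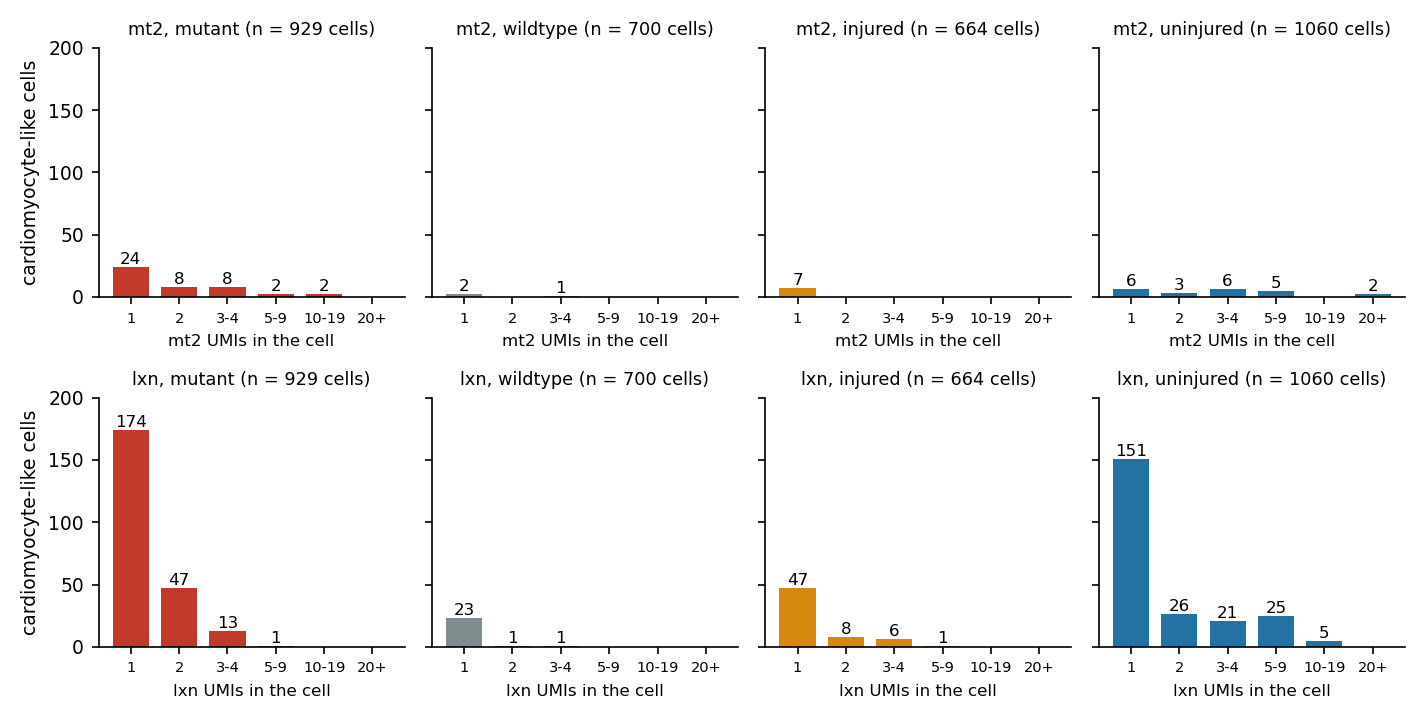
Number of cardiomyocyte-like cells (vertical axis) by the number of mt2 UMIs (top row) or lxn UMIs (bottom row) they held (horizontal axis), in mutant, wildtype, injured and uninjured; cells with 0 UMIs are not drawn. Cells with 20 or more mt2 UMIs occur in uninjured alone, where there are 2, and most cells with lxn have 1 UMI in each library.

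RNA free in the droplets also gives UMIs, so the shares were set beside other classes of the same library. In erythrocyte-like cells an lxn UMI was found in 1 of 22 mutant cells (4.55%, 0.115 to 22.8) and 3 of 15 wildtype cells. It was found in 6 of 50 injured cells (12.0%) and 0 of 19 uninjured cells, which allows up to 17.6%. Erythrocyte-like cells had a median of 1419.5 UMIs in mutant, 1186 in wildtype, 1358 in injured and 827 in uninjured, shallower than cardiomyocyte-like cells. The lxn shares of wildtype and injured cardiomyocyte-like cells, 3.57% and 9.34%, were below those of erythrocyte-like cells of the same library. The erythrocyte-like intervals were wide, 4.33 to 48.1% in wildtype and 4.53 to 24.3% in injured, and overlapped those of cardiomyocyte-like cells. Among barcodes left out by the filters, lxn was at 66.6 CPM (21 UMIs) in mutant and 10.8 CPM (3 UMIs) in wildtype. There it was at 13.0 CPM (33 UMIs) in injured and 20.7 CPM (100 UMIs) in uninjured, so the directions were those of cardiomyocyte-like cells. Whether the lxn UMIs of wildtype and injured cardiomyocyte-like cells were background was not tested. The folds above for lxn therefore set mutant and uninjured against levels that may be background.

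In uninjured, lymphocyte-like cells (median 1798 UMIs) had an lxn UMI in 15 of 83 cells (18.1%, 10.5 to 28.0), and endocardial and endothelial-like cells (median 3755 UMIs) in 67 of 370 cells (18.1%, 14.3 to 22.4). These intervals overlap that of cardiomyocyte-like cells (21.5%, 19.1 to 24.1). After thinning, 5.57% of uninjured cardiomyocyte-like, 7.23% of lymphocyte-like and 4.32% of endocardial and endothelial-like cells had one. By share, uninjured cardiomyocyte-like cells thus do not stand clear of either class. By level, uninjured lxn was at 139 CPM (127 to 151) in cardiomyocyte-like and 58.2 CPM (46.4 to 72.0) in endocardial and endothelial-like cells. In lymphocyte-like cells it was at 282 CPM (221 to 354), with 64.4% of the UMIs in 2 cells. In mutant the cardiomyocyte-like share was 25.3% (22.5 to 28.2), and its interval touches that of the 22 erythrocyte-like cells. For mt2, lymphocyte-like cells had a UMI in 0 of 59 injured cells (which allows up to 6.06%, median 2147 UMIs a cell). In uninjured they had one in 1 of 83 cells (0.0305 to 6.53%). At these numbers of cells the mt2 shares of injured and uninjured cardiomyocyte-like cells cannot be placed above or below those of lymphocyte-like cells. In mutant, 1 of 22 erythrocyte-like cells had mt2 (4.55%, 0.115 to 22.8). That interval covers the one of mutant cardiomyocyte-like cells (4.74%, 3.46 to 6.31).

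Set against all genes and scaled to total UMIs, few shared this pair of directions. mt2 and lxn were chosen for it, so their ranks below describe that choice. Among 2529 genes whose UMIs in the younger pair summed to 50 or more, 412 (16.3%) were more than 1.5-fold higher in mutant than in wildtype cardiomyocyte-like cells and 273 (10.8%) more than 1.5-fold lower. By ratio mt2 was the second highest, below zgc:152791 (log2 ratio 5.42, from 62 UMIs in mutant and 1 in wildtype) and above her4.1 (3.58), a Notch target gene. lxn ranked 5, between si:dkey-188i13.10 (3.49) and glulb (2.94), a glutamine synthetase gene. In the injury pair, 755 of 3064 genes (24.6%) were more than 1.5-fold higher in injured and 150 (4.9%) more than 1.5-fold lower. There mt2 had the lowest ratio of the 3064, next to znf326 (-3.57), and lxn ranked 7 from the lowest, between gpib (-2.03), a gene of the glycolytic enzyme glucose phosphate isomerase, and cnpy1 (-1.79).

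The split of the injury pair depends on scaling. TMM, which scales by a trimmed mean of the genes' ratios, shifted injured-over-uninjured log2 ratios by -0.34 in cardiomyocyte-like cells, and left 346 genes past 1.5-fold higher and 476 past it lower. Relative to that shift mt2 was at -3.93 and lxn at -2.31. In the younger pair the shift was -0.03.

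Past 1.5-fold in both comparisons, 35 of 2347 genes (1.49%) were higher in mutant and lower in injured, 90 (3.83%) were lower in mutant and higher in injured, 86 (3.66%) were higher in both and 11 (0.469%) lower in both. With TMM the first of these counts was 92, so how few genes go this way depends on scaling. Ranked by the smaller of the 2 log2 ratios in size, mt2 stood at 1 and lxn at 2. Under TMM scaling and at a limit of 20 UMIs they kept these ranks. Both genes were chosen on these 2 ratios, so the ranks describe that choice. mt2 passed the limit of 50 UMIs through mutant and uninjured alone, with 5 UMIs in wildtype and 7 in injured. Over all kept cells in place of cardiomyocyte-like cells, mt2 was not among the first 50 and lxn stood at 26. The next, named after their values were seen, were ckmb and mfn1b. ckmb, a muscle creatine kinase gene, was at 1.81 for mutant over wildtype and -1.32 for injured over uninjured. mfn1b, a mitofusin gene of mitochondrial fusion, was at 1.56 and -1.28. For ckmb there were 522 UMIs in mutant and 103 in wildtype, and 34 in injured and 124 in uninjured. The smaller ratio was thus 1.98 in size for lxn and 1.32 for ckmb.

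**Figure D3:**
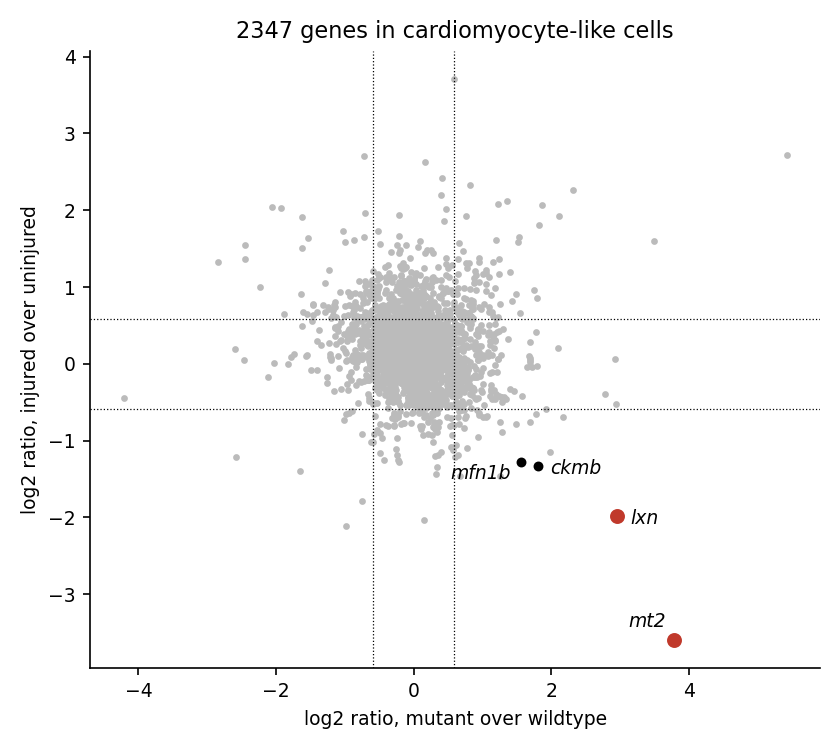
Log2 ratio of mutant over wildtype (horizontal) and of injured over uninjured (vertical) in cardiomyocyte-like cells, one point for each of 2347 genes with at least 50 UMIs in both comparisons. Dotted lines mark 1.5-fold, and mt2 and lxn, in red, lie at the lower right, beyond ckmb and mfn1b.

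Cardiomyocyte-like cells fell into 7 clusters, which the libraries filled unequally. Clusters 2 and 7 each lay mostly in 1 pair of libraries. Cluster 5 held cells of both pairs, 212 mutant, 162 wildtype, 146 injured and 337 uninjured ones. Cluster 2, led by actc1a, cmlc1 and pdk2a with cited4a and trim63a, held 292 mutant and 229 wildtype cells but 3 injured and 21 uninjured ones. There lxn had 147 UMIs in mutant and 6 in wildtype, a log2 ratio of 4.07 (2.91 to 5.54), and mt2 had 59 in mutant and 1 in wildtype, a log2 ratio of 5.34 (2.80 to 10.67). Both leading mutant mt2 cells belonged to it. Cluster 7, led by hspb11, nppb and acta1a, held 195 injured and 300 uninjured cells. In it lxn had 39 UMIs in injured and 265 in uninjured (-2.26, -2.79 to -1.77), and mt2 had 3 UMIs in injured and 82 in uninjured (-4.27, -6.58 to -2.67).

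The lxn ratio of mutant over wildtype was above 0 in each of the 7 clusters. Its interval excluded 0 in 5 of them, clusters 0, 1, 2, 3 and 5, with log2 ratios between 2.11 and 4.07. In clusters 6 and 7, which held 27 and 19 mutant cells, lxn had 4 UMIs each in mutant, against 3 and 4 UMIs in wildtype. On the injury side lxn had 34 UMIs in injured and 146 in uninjured cells of cluster 6 (-2.06, -2.64 to -1.51), the cluster led by myl7, cmlc1, ckma and acta1b. Cluster 5, led by myl7 and cmlc1, had 6 lxn UMIs in injured and 60 in uninjured (-2.18, -3.69 to -0.98). In this same cluster lxn had 45 UMIs in mutant and 7 in wildtype (2.23, 1.07 to 3.63). In clusters 0 and 3, with 4 and 5 lxn UMIs in injured against 10 and 2 in uninjured, the interval held 0.

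Counts of mt2 were smaller, and fewer clusters gave a ratio. Cluster 0 had 15 mt2 UMIs in mutant and none in wildtype. With wildtype set at a floor of 3 UMIs, that was 3.21-fold higher in mutant, a value without an interval. Cluster 5 had 10 in mutant and none in wildtype, 2.44-fold higher by the same floor and again without an interval. Cluster 6 had 3 mt2 UMIs in mutant and 3 in wildtype, and 4 in injured against 12 in uninjured (-1.54, -3.63 to 0.18). Cluster 1 had 11 mt2 UMIs in mutant and 1 in wildtype (2.67, -0.11 to 8.10), an interval that held 0. In cluster 1 all 28 uninjured mt2 UMIs came from 1 cell, and its 16 injured cells had none. Cluster 5 had 1 mt2 UMI in its 337 uninjured cells and none in its 146 injured ones.

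In uninjured cardiomyocyte-like cells most cells with mt2 also had lxn, while most cells with lxn had no mt2. Of 22 uninjured cells with mt2, 20 also had lxn (90.9%, 70.8 to 98.9, exact Clopper-Pearson), and of 1038 cells without mt2, 208 had lxn (17.6 to 22.6%). The cells with mt2 were deeper, at a median of 6022 UMIs against 2662 in those without. Scaled to those totals lxn was at 717 CPM (106 UMIs) in cells with mt2 and 114 CPM (398 UMIs) in cells without. The cell with 33 mt2 UMIs had 13 of lxn, the cell with 28 had 4, and the cell with most lxn, 18 UMIs, had 6 of mt2. Within cluster 7 alone, 14 of 16 cells with mt2 had lxn (87.5%), against 89 of 284 without (31.3%). After thinning, 3 of 8 cells with mt2 (37.5%, 8.52 to 75.5) and 56 of 1052 cells without (5.32%) had lxn, intervals which rest on few cells.

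In mutant cells the shares with lxn had overlapping intervals. Of 44 mutant cells with mt2, 13 had lxn (29.5%, 16.8 to 45.2), and of 885 without mt2, 222 had lxn (25.1%, 22.3 to 28.1). lxn stood at 136 CPM in mutant cells with mt2 and 141 CPM in those without. The mutant cells with 12 and 11 mt2 UMIs had 0 lxn UMIs. In wildtype 0 of 3 and in injured 1 of 7 cells with mt2 had lxn, too few to place. Per cell, Pearson's r of log-normalized mt2 and lxn was -0.02 over 929 mutant cells and 0.28 over 1060 uninjured cells. In uninjured cells lxn was the gene most like mt2, and mt2 the one most like lxn, among 1290 genes. These r are descriptions of sparse counts from 1 library each, and depth is shared by both genes of a cell.

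Outside cardiomyocytes the 2 genes parted. Of the lxn UMIs of all kept cells, cardiomyocyte-like cells held 39.1% in mutant, 10.4% in wildtype, 5.70% in injured and 17.5% in uninjured, and most of the rest lay in fibroblast-like cells. Cardiomyocyte-like cells held 93.5% of mt2 UMIs in mutant, 27.8% in wildtype, 6.93% in injured and 80.4% in uninjured.

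Fibroblast-like cells, the makers of collagen matrix, had lxn at 1276 CPM (471 UMIs) in mutant and 792 CPM (189 UMIs) in wildtype, a log2 ratio of 0.69 (0.44 to 0.94). They had 684 CPM (1091 UMIs) in injured and 1098 CPM (1584 UMIs) in uninjured, a log2 ratio of -0.68 (-0.79 to -0.57). The directions are those of cardiomyocyte-like cells and the ratios are nearer 0. In this class 8.46% of 993 genes were past 1.5-fold higher in mutant and 7.35% of 3932 past it lower in injured, and under TMM the lxn ratios were 1.01 and -1.01. An lxn UMI was found in 83.4% of 151 mutant, 62.3% of 122 wildtype, 84.9% of 219 injured and 87.4% of 309 uninjured fibroblast-like cells.

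Epicardium-like cells, from the sheet that covers the heart, had the highest lxn level of the injury pair, 877 CPM (194 UMIs in 25 cells) in injured and 1609 CPM (482 UMIs in 27 cells) in uninjured. The log2 ratio was -0.88 (-1.12 to -0.63), where 13.5% of 690 genes were past 1.5-fold lower and 30.1% past it higher. Macrophage-like cells had lxn at 66.7 CPM (30 UMIs) in injured and 135 CPM (89 UMIs) in uninjured, a log2 ratio of -1.01 (-1.66 to -0.40), where 9.78% of 1851 genes were past 1.5-fold lower and 8.81% past it higher. Lymphocyte-like cells had 71.8 CPM (20 UMIs) in injured and 282 CPM (73 UMIs) in uninjured, -1.97 (-2.76 to -1.24), where 21.5% of 994 genes were past 1.5-fold lower and 22.8% past it higher. There 2 uninjured cells, with 32 and 15 lxn UMIs, held 64.4% of the uninjured count. Endocardial and endothelial-like cells, which line the chamber and vessels, went the other way within their interval, with 75.7 CPM (102 UMIs) in injured and 58.2 CPM (84 UMIs) in uninjured, 0.38 (-0.05 to 0.82), where 11.8% of 3694 genes were past 1.5-fold higher and 7.34% past it lower. At 6 months these classes held 6 cells or fewer in each library and gave no comparison. Mural-like cells, the pericytes and smooth muscle of vessels, had 6 lxn UMIs in 92 wildtype cells, 2 in 18 injured cells and 1 in 19 uninjured cells.

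**Figure D4:**
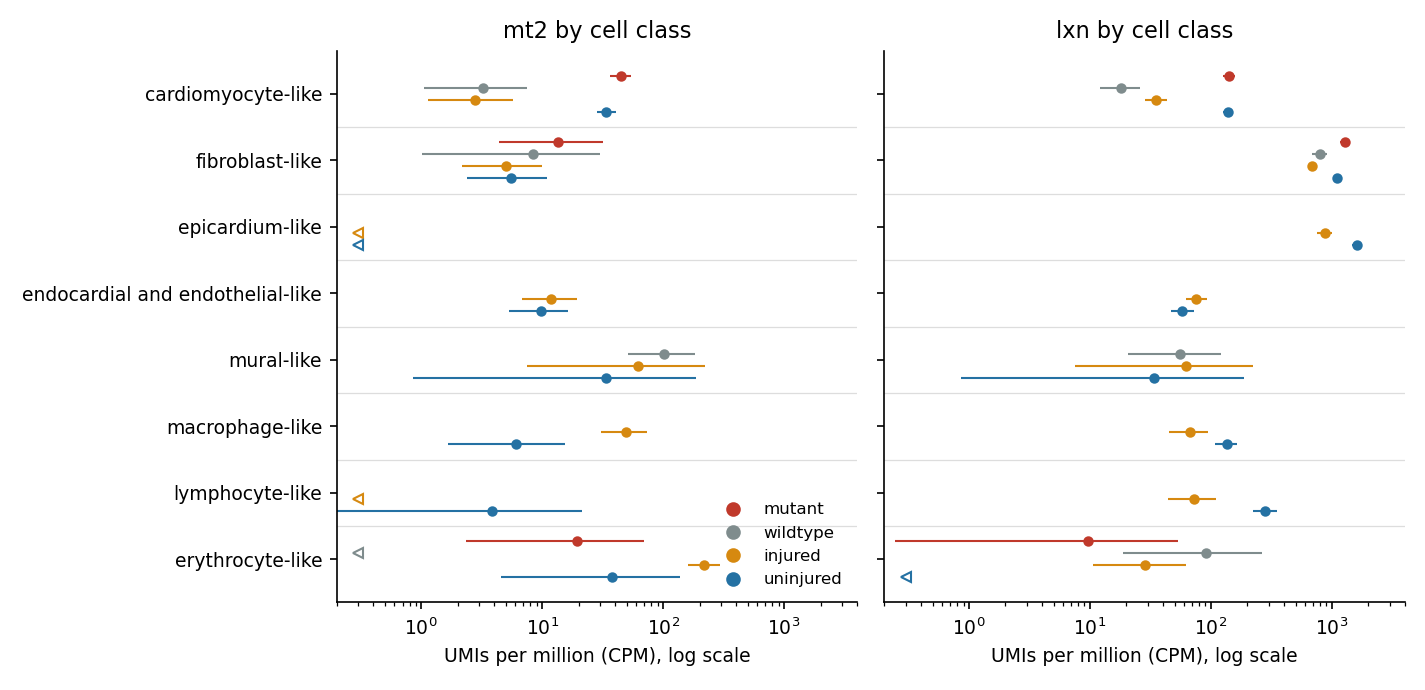
CPM (log axis) of mt2 (left) and lxn (right) by cell class and library. Points are levels, lines exact Poisson intervals at 95%, open triangles at the left edge mark 0 UMIs, and a class with fewer than 10 cells in a library is not drawn. For lxn the fibroblast-like and epicardium-like classes stand highest, and for mt2 the injured erythrocyte-like point is the highest.

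The lower mt2 level in injured cardiomyocyte-like cells is the contrast that chose the gene. Epicardium-like, mural-like, lymphocyte-like and thrombocyte-like cells had too few mt2 UMIs for a ratio of injured over uninjured. Fibroblast-like, endocardial and endothelial-like, macrophage-like and erythrocyte-like cells gave one, and none of their intervals lay below 0. An mt2 UMI was found in 8.70% of wildtype mural-like cells and in 4 of 50 injured erythrocyte-like cells. These shares were above those of cardiomyocyte-like cells in the same libraries. In uninjured erythrocyte-like cells the share was 10.5% of 19 cells (1.30 to 33.1), an interval that covers that of cardiomyocyte-like cells (1.31 to 3.13%). Injured erythrocyte-like cells had 46 mt2 UMIs in 4 of 50 cells, 32 and 10 of them in 2 cells, at 219 CPM, against 2 UMIs in 2 of 19 uninjured cells, at 37.9 CPM. The log2 ratio there was 2.53 (0.60 to 5.62). Injured macrophage-like cells had 22 mt2 UMIs, all in 1 of 64 cells, against 4 UMIs in 4 of 97 uninjured cells, with a log2 ratio of 3.02 (1.46 to 5.01) that rests on that 1 cell. Endocardial and endothelial-like cells had 16 mt2 UMIs in 9 of 268 injured cells and 14 UMIs in 12 of 370 uninjured cells, 0.29. In wildtype the largest mt2 count was in mural-like cells, 11 UMIs in 8 of 92 cells at 102 CPM. Fibroblast-like cells had 5 mt2 UMIs in mutant, 2 in wildtype, 8 in injured and 8 in uninjured, and epicardium-like cells had none in any library. Over all kept cells, the log2 ratio of mt2 was 2.09 (1.36 to 2.90) for mutant over wildtype and -0.35 (-0.73 to 0.02) for injured over uninjured, and that of lxn was 1.11 (0.91 to 1.31) and -0.65 (-0.74 to -0.56). Over those cells, 8.57% of 3782 genes were past 1.5-fold higher and 21.2% past it lower in mutant, and 26.3% of 8693 genes past it higher and 4.39% past it lower in injured.

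**Figure D5:**
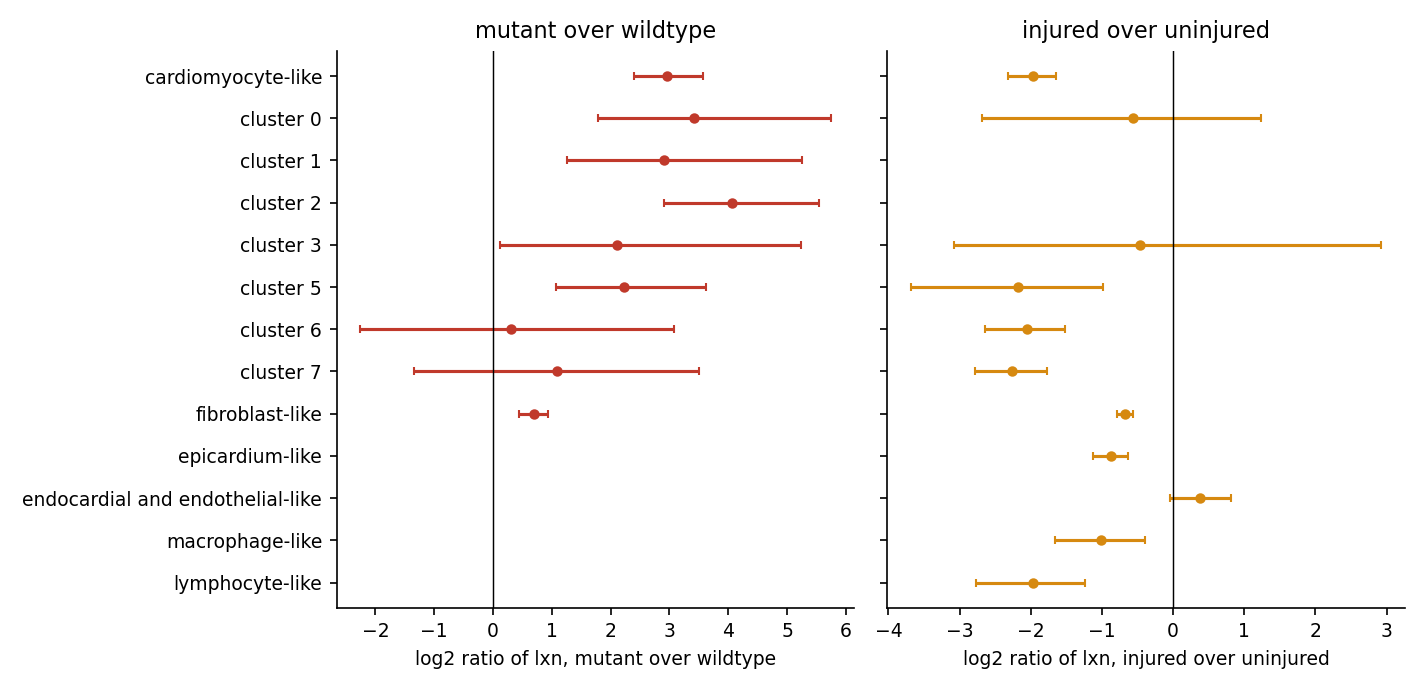
Log2 ratio of lxn for mutant over wildtype (left) and injured over uninjured (right), in cardiomyocyte-like cells together, in their 7 clusters and in other classes. Points are ratios and lines exact conditional intervals at 95%; the vertical line marks 0, and rows without a ratio, or with fewer than 10 cells in a library, are left empty. The points lie right of 0 on the left and, apart from endocardial and endothelial-like cells, left of 0 on the right.

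Because fibroblast-like and epicardium-like cells had so much lxn, their markers were counted in cardiomyocyte-like cells. The 13 fibroblast markers together had 70.6 CPM in mutant, 98.5 CPM in wildtype, 42.0 CPM in injured and 24.7 CPM in uninjured cardiomyocyte-like cells, with 9, 8, 11 and 10 of them above 0 in that order. Their summed level was thus lower in mutant than in wildtype and higher in injured than in uninjured, the opposite of lxn. Inside fibroblast-like cells the same sum also moved so, at 18054 CPM in mutant and 28949 CPM in wildtype. There it was at 25959 CPM in injured and 12567 CPM in uninjured. What part fibroblast RNA had in the lxn counts of cardiomyocyte-like cells was not tested. Per 100 fibroblast-marker UMIs there were 199 lxn UMIs in mutant, 18.3 in wildtype, 83.8 in injured and 560 in uninjured cardiomyocyte-like cells. In fibroblast-like cells the same figure was 7.07 in mutant, 2.74 in wildtype, 2.64 in injured and 8.73 in uninjured. The 12 epicardial markers had 118 CPM in mutant, 83.1 CPM in wildtype, 45.6 CPM in injured and 43.7 CPM in uninjured cardiomyocyte-like cells. Of them 3, 3, 6 and 8 were above 0 in that order, and wt1a, wt1b and upk3b were at 0 in each library. In mutant and wildtype tcf21, tbx18, aldh1a2, krt91, c4b and bnc2 were at 0 as well, so both sums rest on the same 3 markers. The sum of the epicardial markers was higher in mutant than in wildtype, as lxn was, and in injured it was near that of uninjured. The 10 erythrocyte markers had 32.9 CPM in mutant, 29.6 CPM in wildtype, 249 CPM in injured and 64.6 CPM in uninjured cardiomyocyte-like cells, and their part in the mt2 result was not tested.

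Over 19 sums of UMIs by library and class, the genes most like lxn by Pearson's r of log2(CPM + 10) were pcolcea (0.92), dkk3b (0.92), slco2b1 (0.92), si:ch211-194p6.12 (0.91) and adh8a (0.91). pcolcea encodes an enhancer of procollagen processing and dkk3b a secreted protein of the Dickkopf family. In cardiomyocyte-like cells dkk3b had 1 UMI in mutant and 0 in wildtype, and 6 in injured and 8 in uninjured. pcolcea had 95 UMIs in mutant and 27 in wildtype, and 29 in injured and 78 in uninjured, and it is 1 of the 35 genes with the same pair of directions as lxn. For mt2 the most alike were tspo (0.67), a mitochondrial outer membrane protein gene, zcrb1 (0.66), uros (0.64), crcp (0.63) and mthfd2 (0.63). Between mt2 and lxn themselves r was -0.41. Sums from 1 library share that library, and 4714 genes were ranked. Averaged over the 4 libraries within cardiomyocyte-like cells, no r among 777 genes was above 0.12.

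The other genes of metal handling that reached 50 UMIs did not share the size of mt2's ratios. Of 43 list members found, 8 reached it in each pair, mt2 among them, so most of the list was not measured. Of 7 further members of the metal list with at least 50 UMIs, 1 was past 1.5-fold higher and 2 past it lower in mutant, beside 16.3% and 10.8% of all genes, with a median log2 ratio of -0.32 beside 0.02 over all genes. In injured 1 was past it higher and none lower, beside 24.6% and 4.9% of all genes, at a median of 0.13 beside 0.21. The ferritin gene fth1a, an iron store, had 1151 UMIs in mutant and 2064 in wildtype (-1.38), and 3756 in injured and 4016 in uninjured (0.45). fthl27, another ferritin, had 973 UMIs in mutant and 432 in wildtype (0.64), and 1720 in injured and 3113 in uninjured (-0.31), the same signs as mt2 at a smaller size. cox17, a copper chaperone of the respiratory chain, had log2 ratios of -0.42 for mutant over wildtype and 0.13 for injured over uninjured. atox1, which passes copper to its pumps, was at 0.36 and 0.10 for the same comparisons, the order kept for the pairs of ratios below.

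Genes of the antioxidant response, another setting in which metallothioneins are known, were counted in the same way. In mutant, 0 of 13 were past 1.5-fold higher and 2 lower, beside 16.3% and 10.8% of all genes, with a median of -0.08 beside 0.02. In injured 4 of 16 were higher and 1 lower, beside 24.6% and 4.9%, with a median of 0.47 beside 0.21. sod2, the mitochondrial superoxide dismutase, was at -0.08 in both comparisons. The peroxiredoxin genes prdx2 and prdx3 were at 0.18 and -0.06 for mutant over wildtype, and at 0.17 and 0.11 for injured over uninjured.

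Glucocorticoid-responsive genes other than mt2 were past 1.5-fold higher in mutant in 7 of 16 cases and lower in 1, beside 16.3% and 10.8% of all genes, at a median of 0.38 beside 0.02. In injured 1 of 12 was higher and 1 lower, beside 24.6% and 4.9% of all genes, at a median of 0.08 beside 0.21. hsd11b2, whose enzyme inactivates cortisol, had 1512 UMIs in mutant and 795 in wildtype (0.39), and 122 in injured and 203 in uninjured (-0.19). trim63a, a muscle ubiquitin ligase gene, was at 0.65 and -0.33, and cebpd, a transcription factor gene, at 0.23 and -0.55. fkbp5, a chaperone that binds the glucocorticoid receptor, was lower in both, at -0.49 and -0.91.

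Of 10 hypoxia-response genes measured, 4 were past 1.5-fold higher and 2 lower in mutant, beside 16.3% and 10.8% of all genes, at a median of -0.02 beside 0.02. In injured 3 were higher, a share near the 24.6% of all genes, and 2 lower, beside 4.9%, at a median of 0.34 beside 0.21. pgk1, a glycolytic kinase, was at -0.48 and 0.10. ldha, lactate dehydrogenase, had 307 UMIs in mutant and 647 in wildtype (-1.61), and 857 in injured and 780 in uninjured (0.68), opposite in sign to mt2 and lxn in each comparison. Members of the same list went both ways. igfbp1b (1.48 and -0.79) and bnip4 (0.60 and -1.21) had the signs of mt2 and lxn, and both are among the 35 genes with that pair of directions.

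The carboxypeptidases that latexin is known to inhibit, with their relatives, were nearly absent from cardiomyocyte-like cells. None of the 21 found reached 50 UMIs in either pair, and together they had 51 UMIs over mutant and wildtype and 56 over injured and uninjured. Among lxn's own relatives and the cystatins, 2 further genes were measured. cst3, cystatin C, had 238 UMIs in mutant and 93 in wildtype (0.82), and 120 in injured and 140 in uninjured (0.32). cst14a.2 was at -0.37 and 0.61.

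Neighbours were read from RefSeq's GRCz12tu annotation, whose assembly differs from that of the files, and serve for gene order only. It places mt2 on chromosome 18, overlapping nup93, a nuclear pore gene, and lxn on chromosome 15, overlapping gfm1, a mitochondrial translation factor gene. Whether the counting used strand is not given in the sources used here, so reads of overlapping genes may not be told apart. nup93 had 5 UMIs in mutant and 2 in wildtype cardiomyocyte-like cells, and 7 in injured and 8 in uninjured. gfm1 had 10 UMIs in mutant and 11 in wildtype, and 18 in injured and 21 in uninjured. Of the other neighbours within 3 genes of mt2, herpud1 had 16 UMIs in mutant and 7 in wildtype, and 3 in injured and 7 in uninjured, bbs2 had 3 in mutant and 0 in wildtype, and 8 in injured and 7 in uninjured, and b3gnt9, slc12a3 and cetp had none. Near lxn, mlf1 was the neighbour with most UMIs, 205 in mutant and 109 in wildtype (0.37, 0.03 to 0.72), and 131 in injured and 323 in uninjured (-0.76, -1.06 to -0.46). Its signs were those of lxn. kpna4, schip1, p2ry13 and mfsd1 had between 0 and 50 UMIs in each library.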

How the data were processed

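The authors deposited raw UMI counts per feature and barcode for 4 libraries; the file headers name Cell Ranger 4.0.0. GRCz11 and Seurat are named in the submitters' processing notes without a role. The members and all gene lists were chosen with earlier results of these data known.

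Kept barcodes had 200 or more genes and no more than 25% of UMIs from mitochondrial genes, and 8 Scrublet doublet calls (0.146%) were left out, so doublets remain. Of 11795 barcodes 5462 stayed. Clustering (scanpy 1.11.5, 2000 variable genes, 30 components, 15 neighbours, Leiden resolution 1.0) gave 19 clusters, named from 12 marker lists, with 1 unnamed. Counts were summed by class and library and scaled to CPM. Intervals are exact (Poisson, Clopper-Pearson, conditional binomial for ratios). Against 0 UMIs a ratio used a floor of 3. Genes with at least 50 UMIs over a pair were compared, without mitochondrial, ribosomal protein and globin genes. Named genes were the members, the list members with most UMIs, those most alike, 3 neighbours on each side, and those next in rank. Ratio code was tested on simulated data. Alternatives included TMM (edgeR 4.0.16), thinning, other filters, other clusterings, all cells, and leaving out top cells.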

Additional observations from a re-analysis of the deposited data

Results flagged for a closer look

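The mt2 ratio of injured over uninjured had opposite signs in different cell classes. It was 3.02 (log2) in macrophage-like cells and 2.53 in erythrocyte-like cells, against -3.59 in cardiomyocyte-like cells. The difference between classes was not tested. All 22 mt2 UMIs of injured macrophage-like cells came from 1 cell of 9181 UMIs, and 32 and 10 of the 46 of injured erythrocyte-like cells from 1 cell each.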

How the results depend on the processing

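No paired analysis was possible because each group had 1 library. Of the values recomputed, 67 stayed within the interval of the reported value (or, for a count, within 1.5 times), 27 moved and none changed sign. Over all kept cells, mt2 was at 2.09 (mutant over wildtype) and -0.35 (injured over uninjured) and lxn at 1.11 and -0.65; over all deposited barcodes mt2 was at 2.16 and -0.16 and lxn at 1.16 and -0.45. Leaving out 2 top cells, chosen after seeing the data as were all barcodes, gave 5.73 for mt2 in mutant over wildtype. Thinning to 500 UMIs gave 1.91 for lxn in mutant over wildtype and no value for mt2, since no wildtype UMI was left. For injured over uninjured the thinned ratio was -2.78 (-8.21 to -0.002) for mt2 and -1.75 (-2.73 to -0.89) for lxn. Thinned shares of cells with mt2 were 1.40%, 0%, 0.151% and 0.755% in mutant, wildtype, injured and uninjured, and with lxn 5.71%, 1.43%, 1.96% and 5.57%. Genes past 1.5-fold numbered 1485, 179 and 1127 (20 UMIs, 200 UMIs, all kept cells) in place of 685 for mutant, and 1790, 227 and 2669 in place of 905 for injured. Genes higher in mutant and lower in injured numbered 92 with TMM, 81 at 20 UMIs and 6 at 200, in place of 35. The cause of these moves was not tested. At 200 UMIs mt2 was not measured.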
